A study of Mus musculus with 48 samples.

Results

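RAW264.7 is a macrophage line from the mouse, and 12 of its 48 libraries are described here, in which IFN-γ target genes stood high although 6 of the 12 are labelled as never having received IFN-γ. The 12 carry HLA-numbered names and make up 12 of the 24 libraries so named. Class 1 holds the 3 libraries labelled LE and the 3 labelled PE, which are peptide groups with no IFN-γ on the label. Class 2 holds the 3 libraries labelled LE+IFNy and the 3 labelled PE+IFNy. The members were picked because of their IFN-γ response, and they are split into classes by their labels, so each is called here "the library labelled X".

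Every peptide copies the same stretch of a human HLA-DR β chain: LE from an allele that goes with lupus, SE from a rheumatoid arthritis allele and PE from a protective one. By the labels, peptide was given at 100 µg/ml and IFN-γ at 5 ng/ml, and all cells were harvested after 72 h. The other libraries are 24 with letter names, 3 in each of the 8 label groups, and 12 with HLA names labelled PBS, SE, IFNy and SE+IFNy. The model is 1 transformed mouse line given human peptide sequences. The study's legends call the replicates biological and give 2 independent experiments, but the labels do not say which library came from which experiment, so p-values measure the spread between these libraries.

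IFN-γ binds a receptor that acts through JAK kinases, and it turns on GTPases of the Gbp family, antigen presentation genes and Nos2, the enzyme that makes nitric oxide. NF-κB, which sits in the cytosol bound to inhibitors such as Nfkbia until a toll-like receptor, TNF or another signal releases it, adds to this at many promoters. Macrophages that receive both kinds of signal are known for high Nos2, Tnf, interleukin 1 and chemokine transcripts. Irf4, a transcription factor of the IRF family, is among the genes that NF-κB can induce.

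The response that defined these libraries was the mean log2(CPM + 1) of 25 IFN-γ targets, where CPM is a gene's count scaled by the total count of its library. The score was 6.80 to 7.01 in class 1 and 6.42 to 6.69 in class 2. In the other 12 HLA-labelled libraries it was 2.53 to 2.79, including those labelled IFNy and SE+IFNy. The gap between the lowest member at 6.42 and the highest other HLA-labelled library at 2.79 is the selection itself and is not tested. In the letter-labelled series the score was 6.57 to 6.70 in the libraries labelled IFNy and PE+IFNy and 6.60 to 6.93 in those labelled LE+IFNy and SE+IFNy. Both classes overlapped the IFN-γ-labelled letter libraries on this scale, and class 1 was above class 2 with no overlap.

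The total count was 18957169 to 29765573 in class 1 and 18250097 to 31393254 in class 2. All 11 macrophage markers in the table passed the low-count filter, and their summed level was 9859 to 12361 CPM in class 1 and 7452 to 9139 CPM in class 2. Summed markers of T cells were at 9.40 to 17.0 CPM, of fibroblasts at 0.255 to 1.77 CPM and of neutrophils and mast cells at 0.159 to 1.26 CPM over the 12 libraries, with 5 of 9, 4 of 7 and 5 of 8 of their markers at 0 throughout. Summed B cell markers, almost all of it Ighm, were at 69.1 to 110 CPM in class 1 and 79.6 to 121 CPM in class 2, against 4.42 to 10.3 CPM in the other 12 HLA-labelled libraries. In bulk RNA, fewer cells of a state and less RNA per cell cannot be told apart. The mitochondrial share of counts was 3.09% to 3.49% in class 1 and 2.91% to 3.17% in class 2. The library labelled LE with replicate number 6 stood apart within class 1, at -25.3 on the second principal component where the other 5 lay between -5.42 and 12.8.

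Class 1 had more transcript than class 2 of 20 of 37 NF-κB targets tested, 15 of 24 type I interferon targets and 19 of 25 DNA replication genes, where 9.65% of all genes were called higher. Class 2 had more transcript of 14 of 19 endoplasmic reticulum (ER) chaperones and 8 of 20 cholesterol genes, where 8.69% of all genes were called higher in class 2, and of single genes such as Pi16 and Car6. The first principal component of the 12 libraries carried 62.1% of the variance and separated the classes with no overlap, whereas the second carried 10% and ordered the label groups inside a class. Pearson's r of log2 CPM across genes was 0.973 to 0.988 between libraries of different classes and 0.992 to 0.997 between libraries of 1 label group, both as descriptions.

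**Figure D1:**
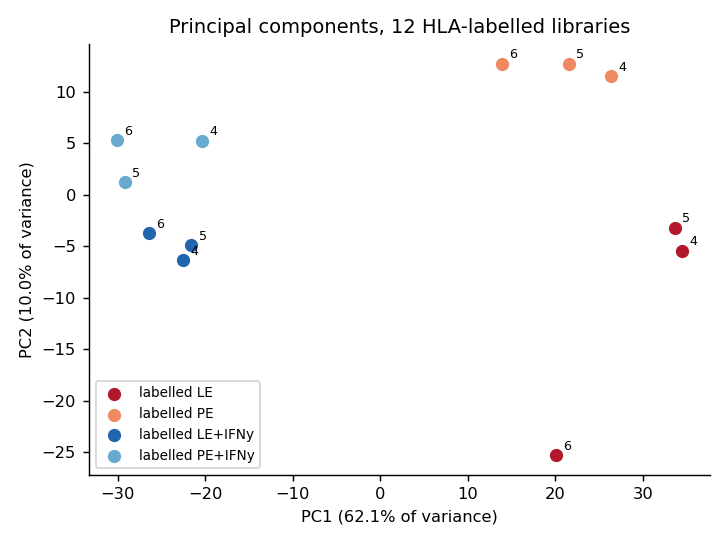
Principal components of log2 CPM in the 12 HLA-labelled libraries, with the first component on the x axis (62.1% of the variance), the second on the y axis (10%), colour for the label group and the replicate number beside each point. Libraries labelled LE and PE lie right of 0 and libraries labelled LE+IFNy and PE+IFNy left of 0, and the library labelled LE 6 lies lowest at -25.3.

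With edgeR's quasi-likelihood test and Benjamini-Hochberg adjustment over 14222 genes, 2608 genes passed an adjusted p of 0.05 and a fold change of 1.5, which is 18.3% of those tested. Of these, 1372 (9.65%) were higher in class 1 and 1236 (8.69%) higher in class 2. More than 2-fold changes were found for 1103 of the called genes and more than 4-fold changes for 152, of which 100 were higher and 52 lower in class 1. The 6 values of one class lay wholly above the 6 of the other for 3796 genes (26.7%), with class 1 higher for 1483 (10.4%) and lower for 2313 (16.3%). The median log2 fold change over all genes tested was -0.01. All log2 fold changes below are class 1 minus class 2, with the standard error after the sign ±, unless another contrast is named.

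Both label pairs were also tested on their own. Since the IFN-γ response of these libraries goes against their labels, it is not known from these data that the libraries of a pair share the peptide they are labelled with, and this holds for every result below that rests on a peptide label. Between the libraries labelled LE and LE+IFNy, 2548 genes (17.9%) passed the test, and between those labelled PE and PE+IFNy, 2119 (14.9%) did. The comparisons have no library in common. They shared 1523 calls, all in the same direction, which is 59.8% of the first list and 71.9% of the second. For the LE-labelled pair, 1353 calls (9.51%) were higher and 1195 (8.4%) lower in the libraries labelled without IFN-γ, but 1127 and 1521 with upper-quartile scaling. For the PE-labelled pair, 1155 (8.12%) were higher and 964 (6.78%) lower, but 1008 and 1149 with upper-quartile scaling.

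The markers given for the classes were Irf4, Nos2 and Tnf, and their values are a description with no test. Irf4 (chr13:30749226-30766976, GENCODE M21 on GRCm38) was at 16.3, 24.7 and 36.4 CPM in class 1 (lowest, median and highest of 6 libraries) and at 6.14, 6.66 and 7.75 CPM in class 2. Nos2 (chr11:78920787-78960254) was at 192, 243 and 252 CPM in class 1 and at 79.3, 96.0 and 107 CPM in class 2. Tnf, which encodes the cytokine TNF (chr17:35199381-35202007), was at 167, 210 and 226 CPM in class 1 and at 75.5, 86.6 and 103 CPM in class 2. Each marker was thus higher in every class 1 library than in any class 2 library, 3.82-fold for Irf4, 2.62-fold for Nos2 and 2.46-fold for Tnf in the fitted means.

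Against the other 12 HLA-labelled libraries the markers behaved differently from each other. Nos2 there was at 2.08 to 33.4 CPM, below both classes. Tnf was at 38.0 to 79.3 CPM, which overlaps the lowest class 2 libraries. Irf4 was at 8.05 to 18.3 CPM, above every class 2 library.

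**Figure D2:**
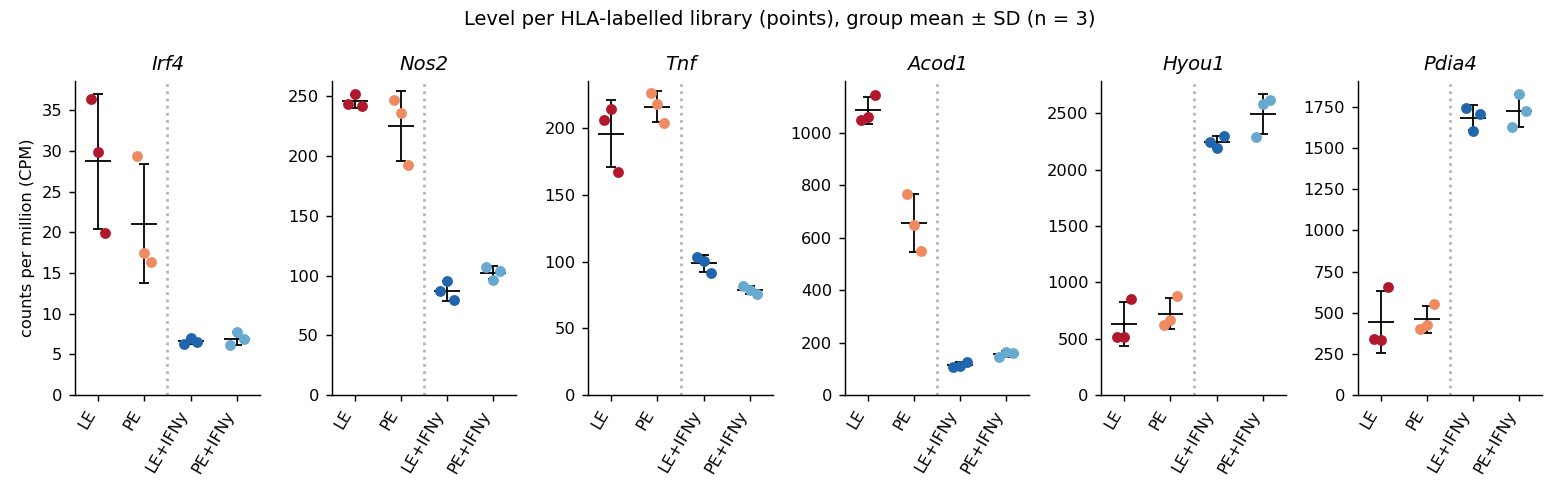
CPM (y axis, from 0) of Irf4, Nos2, Tnf, Acod1, Hyou1 and Pdia4 in the 12 HLA-labelled libraries by label group (x axis). Points are libraries, bars the mean ± SD of 3, and the dotted line divides class 1 (left) from class 2 (right). No panel shows an overlap between the classes, with Irf4, Nos2, Tnf and Acod1 higher on the left and Hyou1 and Pdia4 higher on the right.

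Among 41 NF-κB targets listed, 37 passed the low-count filter and 20 of them were called, each higher in class 1, against 9.65% of all genes in that direction. Their median log2 fold change was 0.79, beside -0.01 over all genes tested, and the list includes the 3 markers. Cxcl2, a chemokine that draws neutrophils, was at 115 to 181 CPM in class 1 and 28.4 to 48.8 CPM in class 2 (2.10 ± 0.07, adjusted p = 1.49e-11). Pim1, a serine/threonine kinase induced by cytokines, was at 79.7 to 149 CPM in class 1 and 26.9 to 35.6 CPM in class 2 (1.89 ± 0.07, adjusted p = 1.49e-11). Cxcl10, which attracts cells bearing Cxcr3, was at 14.6 to 22.0 CPM in class 1 and 2.56 to 4.29 CPM in class 2 (2.35 ± 0.12, adjusted p = 7.25e-10). Sod2, Ptgs2, Cd83, Traf1, Ccl2, Ccl3, Ccl4, Ccl22 and Saa3 were among the other called members.

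Interleukin 1 transcripts were low in level and differed by large folds. Il1b had a mean of 6.56 CPM in class 1 and 0.383 CPM in class 2 (4.18 ± 0.24, adjusted p = 1.45e-09), and Il1a 7.52 and 0.862 CPM (3.23 ± 0.21, adjusted p = 5.77e-09). These genes fell below the level required by the rule for named genes and were chosen after their values were seen. Il1rn, whose product blocks the interleukin 1 receptor, was far more abundant, at 523, 752 and 877 CPM in class 1 and 99.4, 135 and 176 CPM in class 2 (2.50 ± 0.12, adjusted p = 2.42e-10). The agonists and their antagonist were therefore all higher in class 1.

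The subunits and inhibitors of NF-κB moved less than its targets. Of 17 listed and tested, 6 were called, each higher in class 1 (9.65% of all genes were), with a median of 0.28. Tnfaip3, a deubiquitinase that dampens NF-κB, was at 28.6 to 57.2 CPM in class 1 and 13.4 to 15.4 CPM in class 2 (1.69 ± 0.09, adjusted p = 6.83e-10). Nfkbia, the inhibitor IκBα, was at 56.6 to 65.1 CPM and 31.5 to 39.7 CPM (0.81 ± 0.06, adjusted p = 9.57e-09), and Relb, a subunit, at 28.9 to 33.7 CPM and 15.3 to 19.0 CPM (0.95 ± 0.07, adjusted p = 9.56e-09). Zc3h12a, Nfkbiz and Tnip1 were the remaining calls.

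The promoters of a target and of both these inhibitors are shown because their genes moved together and because each holds a κB-type decamer next to its start. The lines give the 150 bases before the RefSeq start site (GRCm38.p6), 5′ to 3′ on the gene's strand, with matches to GGGNNTTTCC or its reverse complement GGAAANNCCC in capitals.
Cxcl2 (chr5:90903749-90903898, plus strand): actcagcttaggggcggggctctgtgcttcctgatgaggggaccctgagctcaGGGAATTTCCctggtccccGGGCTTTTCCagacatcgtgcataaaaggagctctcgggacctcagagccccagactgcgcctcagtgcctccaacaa
Tnfaip3 (chr10:19015411-19015560, minus strand): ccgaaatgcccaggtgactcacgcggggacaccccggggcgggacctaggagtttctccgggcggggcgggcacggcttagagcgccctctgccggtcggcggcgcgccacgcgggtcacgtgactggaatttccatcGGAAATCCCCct
Nfkbia (chr12:55492648-55492797, minus strand): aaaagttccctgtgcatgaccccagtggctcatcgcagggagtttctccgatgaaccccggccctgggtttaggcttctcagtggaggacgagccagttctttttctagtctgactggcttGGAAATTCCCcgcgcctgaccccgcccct
The first match lay 97 bases before the start in Cxcl2, which holds 2, 12 bases before it in Tnfaip3 and 29 bases before it in Nfkbia. Not every gene with the decamer there was higher in class 1: Mvd, with a match 47 bases before its start, was lower (-1.13). In windows of 250 bases before to 50 after the start, this decamer on either strand occurred in 1.89% of all 27025 genes with a RefSeq promoter and in 2.10% of the 9412 tested genes that matched by symbol. It occurred in 3.06% of the 916 matched genes called higher in class 1 and in 1.74% of the 748 called lower. The letters TGACTCA or TGAGTCA, the AP-1 type site, occurred in 4.57% of the matched genes tested, in 7.10% of those higher, in 5.88% of those lower and in 12 of the 66 matched genes over 4-fold higher in class 1. TTCNNNGAA, the STAT type site, occurred in 8.23% of the matched genes tested, 9.72% of those higher and 9.22% of those lower. These shares describe letters in windows and say nothing of binding.

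Of 29 listed TNF ligands and receptors, 23 were tested and 13 called, all higher in class 1 (9.65% of all genes were), with a median of 0.70. The 13 include Tnf, a marker of the classes. Tnfrsf1b, the second TNF receptor, was at 76.6 to 96.7 CPM in class 1 and 41.8 to 51.6 CPM in class 2 (1.02 ± 0.05, adjusted p = 5.42e-10). Tnfrsf26 was at 37.0 to 61.6 CPM and 22.2 to 28.4 CPM (1.05 ± 0.09, adjusted p = 6.46e-08). Fas, the death receptor of the family, was at 13.3 to 17.5 CPM and 9.74 to 12.1 CPM (0.60 ± 0.07, adjusted p = 2.46e-06), just past the fold threshold. Of 16 necroptosis and cell death genes, 3 were called, Zbp1, Casp1 and Fas, which is near the 18.3% of all genes called in either direction, and Gsdmd, the pore-forming gasdermin, had 0.51 ± 0.05.

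Of 24 type I interferon targets tested, 15 were called higher in class 1 (9.65% of all genes were) and 1, Isg20, lower (8.69%), with a median of 0.70. The label pairs differed in extent. In the LE-labelled pair 17 of the 24 were higher (9.51% of all genes), with a median of 1.11. In the PE-labelled pair 7 were higher (8.12%) and 1 lower (6.78%), with a median of 0.43. Inside class 1, 6 of the 24 were called higher under the LE label than under the PE label (1.03% of all genes). Rsad2, the antiviral enzyme viperin, was at 92.7 to 141 CPM in class 1 and 21.3 to 34.9 CPM in class 2 (1.98 ± 0.09, adjusted p = 2.66e-10). Irf7, the factor that amplifies type I interferon transcription, was at 195, 256 and 436 CPM and 83.1, 90.4 and 119 CPM (1.58 ± 0.09, adjusted p = 1.56e-09). Irf8 followed with 0.61 ± 0.05 (adjusted p = 2.89e-08) and Irf9, which did not pass the fold threshold, with 0.40 ± 0.05.

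The IFN-γ targets were high in both classes because the libraries were picked on them, so their values are described only. Over the 24 that were tested the median log2 fold change was 0.36. Gbp2 was at 364 to 562 CPM in class 1 and 126 to 198 CPM in class 2, and Serpina3g, a protease inhibitor, at 41.7 to 69.8 CPM and 13.2 to 26.4 CPM. The summed level of the list overlapped, at 7669 to 9838 CPM in class 1 and 7984 to 9139 CPM in class 2. The sum thus overlapped between the classes, whereas the score over the 25 targets did not (6.80 to 7.01 against 6.42 to 6.69). Of the 24 members, 17 had a log2 fold change above 0, and Wars was among the lower ones.

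Acod1, the mitochondrial enzyme that makes itaconate, had the largest increase among the genes that passed the level of 10 CPM in the rule for named genes. It was at 551, 909 and 1146 CPM in class 1 and at 108, 136 and 165 CPM in class 2 (2.73 ± 0.08, adjusted p = 2.21e-12). Inside class 1 it was higher in each library labelled LE, at 1050 to 1146 CPM, than in each labelled PE, at 551 to 768 CPM.

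Among nitric oxide, arginine and phagocyte oxidase genes, 6 of 14 tested were higher in class 1 (9.65% of all genes were) and 2 lower (8.69%). Their median log2 fold change was -0.0086. The 6 include Nos2, a marker of the classes. The higher ones were Slc7a2, Arg2, Nos2, Cybb, Ncf1 and Ass1, and Cybb, the catalytic subunit of the phagocyte oxidase, was at 1721 to 2160 CPM against 1090 to 1472 CPM (0.80 ± 0.07, adjusted p = 1.93e-07). Pts and Spr, enzymes of the synthesis of tetrahydrobiopterin, a cofactor of Nos2, were lower in class 1, at 11.8 to 16.5 CPM against 23.7 to 27.1 CPM (-0.74 ± 0.08, adjusted p = 1.69e-06) and at 13.3 to 20.2 CPM against 27.6 to 32.8 CPM (-0.72 ± 0.07, adjusted p = 7.39e-07). Nos2 and these cofactor genes differed in opposite directions between the classes.

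Endocytic and pattern receptors were among the higher genes too. Of 15 tested in a list of macrophage surface genes, 7 were higher in class 1 (9.65% of all genes were) and 2 lower (8.69%). Cd36, a scavenger receptor, was at 1502 to 2328 CPM in class 1 and 918 to 1103 CPM in class 2 (1.12 ± 0.07, adjusted p = 4.38e-09), Msr1, another, at 722 to 845 CPM and 364 to 438 CPM (1.09 ± 0.06, adjusted p = 7.25e-10), and Clec4e, a lectin that senses mycobacterial glycolipid, at 509 to 794 CPM and 220 to 290 CPM (1.44 ± 0.07, adjusted p = 2.17e-10). Clec10a and Cd86 were the members lower in class 1. Among 12 chemoattractant receptors tested, 6 were higher and S1pr1 was lower, against the same shares of all genes. The 6 include Cxcr4, the receptor of Cxcl12, at 20.3 to 53.4 CPM and 5.32 to 7.92 CPM (2.43 ± 0.16, adjusted p = 8.13e-09), and Fpr2, a formyl peptide receptor, at 12.6 to 21.9 CPM and 3.98 to 8.58 CPM (1.62 ± 0.15, adjusted p = 3.15e-07).

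Of 18 immediate early genes, 6 were higher in class 1 (9.65% of all genes were) and 1, Klf2, lower (8.69%). Myc, the growth regulator, was at 19.6, 24.2 and 30.8 CPM and 4.10, 4.55 and 5.96 CPM (2.44 ± 0.10, adjusted p = 4.36e-11). Dusp1, a phosphatase that switches off MAP kinases, was at 58.2 to 110 CPM and 15.8 to 20.9 CPM (2.23 ± 0.07, adjusted p = 2.21e-12). Of 23 lysosome and osteoclast genes tested, 9 were called, each higher in class 1, against the same 9.65% of all genes. Acp5, the tartrate-resistant phosphatase, was at a mean of 19.9 CPM and 6.74 CPM (1.71 ± 0.13, adjusted p = 3.00e-08).

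The remaining genes at the top of the rule were of varied function. Higher in class 1 were Sdc1, the cell surface proteoglycan syndecan 1 (2.70 ± 0.11), Dmpk, a kinase (2.61 ± 0.12), Dio2, which activates thyroid hormone (2.54 ± 0.09), Xylt1, which starts proteoglycan chains (2.28 ± 0.16), the chemokine Ccl7 (2.23 ± 0.11) and the factor Egr1 (2.22 ± 0.18). All had adjusted p-values of 4.33e-08 or less in edgeR's test and no overlap between classes, and Sdc1 ran from 63.8 to 149 CPM in class 1 and from 13.7 to 20.8 CPM in class 2.

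ER chaperones and folding enzymes moved in the other direction. The ER folds secreted and membrane proteins, and the unfolded protein response raises these genes when folding falls behind. All 19 listed genes were tested, and 14 were called, each higher in class 2, against 8.69% of all genes in that direction. Their median log2 fold change was -1.19, and for 17 of the 19 every class 1 library was below every class 2 library, as it was for 16.3% of all genes. Their summed level was 12385 to 19871 CPM in class 1, 34940 to 36214 CPM in class 2 and 26980 to 38206 CPM in the other 12 HLA-labelled libraries. Class 2 was thus inside the range of the libraries without an IFN-γ response, and class 1 below it.

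Hspa5, the chaperone BiP and the most abundant of them, was at 3634, 4456 and 7394 CPM in class 1 and at 9449, 11334 and 12289 CPM in class 2 (-1.03 ± 0.15, adjusted p = 3.05e-05). Pdia4, a disulfide isomerase, was at 332, 415 and 659 CPM in class 1 and at 1601, 1717 and 1829 CPM in class 2 (-1.84 ± 0.14, adjusted p = 2.36e-08). Hyou1, a chaperone of the Hsp70 family, was at 513, 645 and 878 CPM and at 2195, 2294 and 2613 CPM (-1.74 ± 0.11, adjusted p = 5.68e-09). Creld2 (-2.12 ± 0.19), Dnajc3 (-1.73 ± 0.14) and Fkbp11, a prolyl isomerase not on the list (-2.23 ± 0.15), fell likewise. Xbp1, the transcription factor of the unfolded protein response, had 0.15 ± 0.04, and Dnajb9, one of its targets, 0.0025 ± 0.06, so both stayed far from the fold threshold. Hspa5, Xbp1 and Dnajb9 are list members outside the rule for named genes and were chosen after their values were seen.

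**Figure D3:**
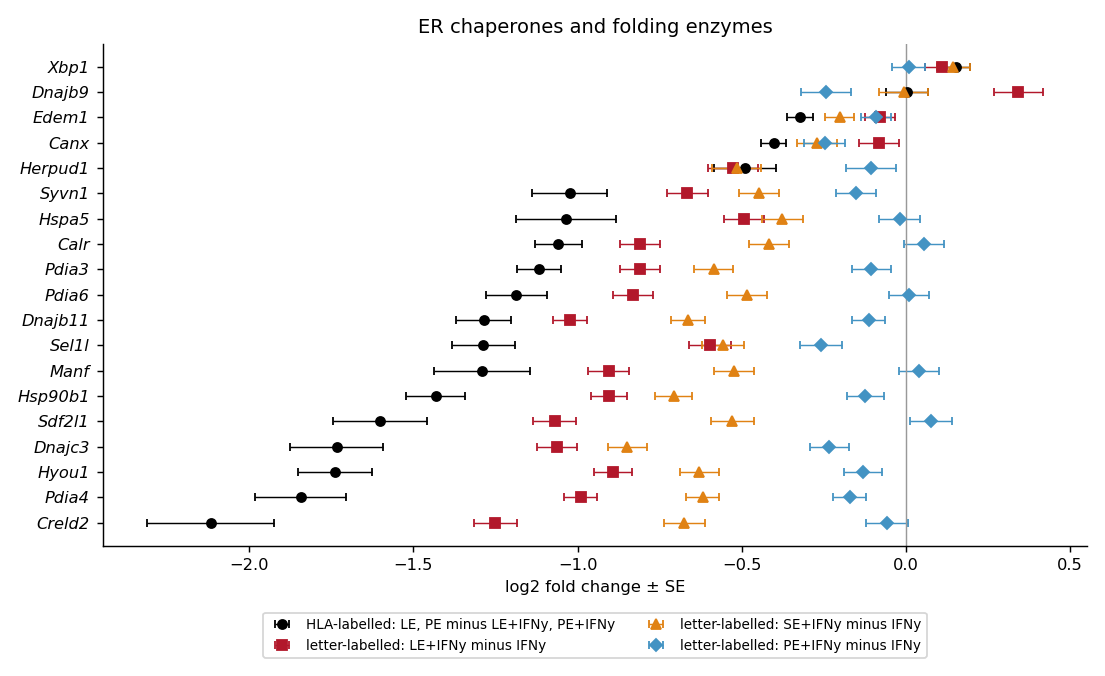
Log2 fold change ± SE (x axis) of 19 ER chaperones and folding enzymes (y axis) in the class contrast (black circles) and in the letter-labelled contrasts of LE+IFNy (red squares), SE+IFNy (orange triangles) and PE+IFNy (blue diamonds) against IFNy. The black points run from -2.12 for Creld2 to 0.15 for Xbp1.

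The ATF4 and CHOP targets, another arm of the stress response, did not move as a group, with 2 of 18 higher in class 1 (Atf3 and Ddit4) and 2 lower (Aldh18a1 and Phgdh), a median of 0.18. None of 17 NRF2 targets was called, and the median was 0.02. Among these 17, Pgd had -0.49 ± 0.09 (adjusted p = 0.000213), under the fold threshold, and passed it at -0.59 without the library labelled LE 6. Of 20 glycolysis and hypoxia genes, Hk2 and Vegfa were higher in class 1 and the lactate transporter Slc16a3 lower. These calls, like those of the ATF4 and CHOP targets, were near or under the shares of all genes, 9.65% higher and 8.69% lower.

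Of 20 cholesterol genes, 8 were called, each lower in class 1 (8.69% of all genes were), and the other 12 were not called, with a median of -0.52. Fdps, which makes farnesyl diphosphate, was at 6.59 to 12.9 CPM in class 1 and 16.6 to 25.7 CPM in class 2 (-1.20 ± 0.12, adjusted p = 4.08e-07). In a list of 11 LXR-related genes tested, Scd2, Scd1, Fasn and Lpcat3 were lower (8.69% of all genes were) and Nr1h3 and Abca1 higher (9.65%) in class 1. Scd2, a fatty acid desaturase, was at 89.3, 144 and 206 CPM and at 429, 505 and 554 CPM (-1.73 ± 0.10, adjusted p = 1.41e-09), whereas Nr1h3, which encodes LXRα itself, was at 15.5 to 21.3 CPM and 5.57 to 8.77 CPM (1.45 ± 0.09, adjusted p = 3.96e-09).

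The largest single decreases were of low to middle abundance. Avil, the actin-binding protein advillin, was at 7.97, 13.1 and 38.3 CPM in class 1 and at 160, 204 and 270 CPM in class 2 (-3.36 ± 0.34, adjusted p = 5.76e-07). Its highest class 1 values, 38.3 and 36.1 CPM, were those of the libraries labelled LE 6 and PE 6. Cdsn (-3.41 ± 0.21), Pi16 (-3.06 ± 0.15), Tenm4 (-2.59 ± 0.21), Car6, a secreted carbonic anhydrase (-2.36 ± 0.17), Kbtbd11 (-2.08 ± 0.09), Slc17a9, a vesicular nucleotide transporter (-1.88 ± 0.10), and Fam171b (-1.74 ± 0.17) completed the rule, with adjusted p-values of 5.40e-07 or less in edgeR's test.

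DNA replication genes were higher in class 1 in 19 of 25 members (9.65% of all genes were called higher), with a median of 0.92, and 18 of the 25 had no overlap between classes (10.4% of all genes with class 1 higher). Lig1, the replicative DNA ligase, was at 48.9 to 59.6 CPM in class 1 and 18.5 to 22.9 CPM in class 2 (1.46 ± 0.07, adjusted p = 1.91e-10). Mitosis genes were called higher in 21 of 25, with a median of 0.96, and 4 of the 25 had classes that did not overlap, beside the same 10.4% of all genes. Mki67, the proliferation antigen, was at 476, 804 and 951 CPM and at 292, 322 and 447 CPM (1.28 ± 0.12, adjusted p = 2.21e-07), and Kif11, a spindle motor, overlapped, at 53.2 to 135 CPM and 34.8 to 57.3 CPM.

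Replication-dependent histones were called higher in class 1 in 24 of 26 members tested, with a median of 1.14, and 1 of the 26 showed no overlap, against the same shares of all genes. Their share of all counts was 0.132% to 0.313% in class 1 and 0.115% to 0.158% in class 2, and the lowest class 1 value was that of the library labelled LE 6. Most of these transcripts lack a poly(A) tail, and their share was 0.00215% to 0.00396% in the 12 letter-labelled libraries with an IFN-γ response. The part of poly(A) capture in this difference between series was not tested.

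**Figure D4:**
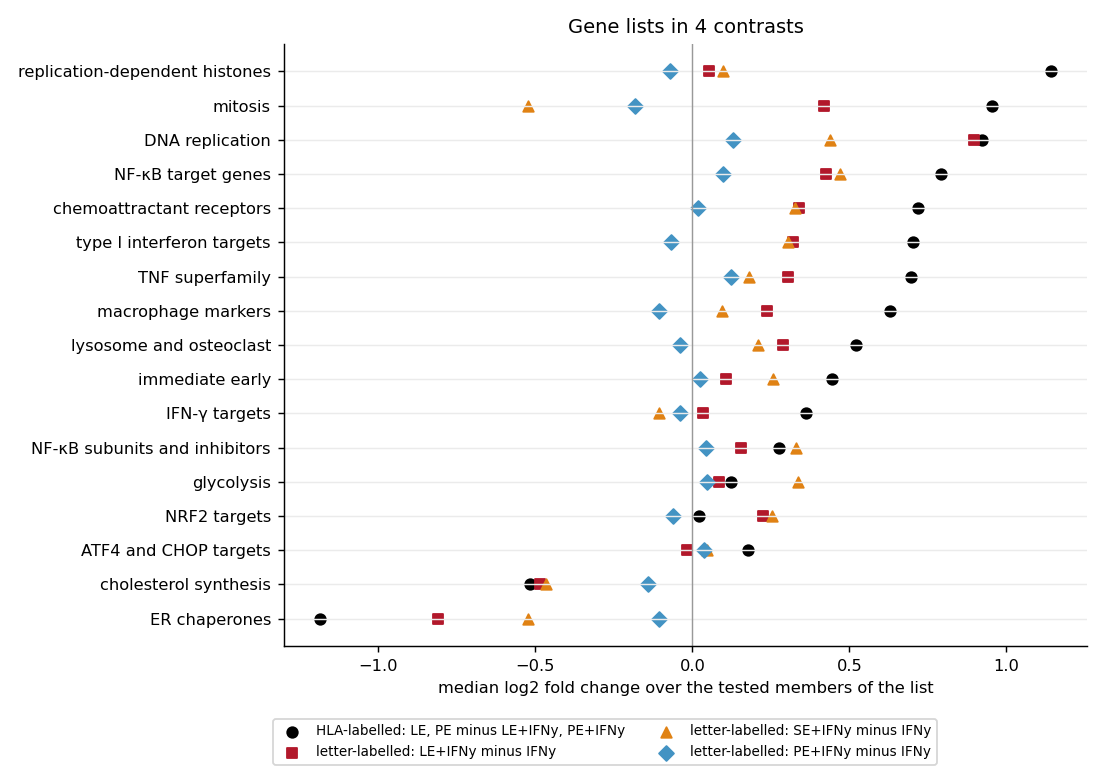
Median log2 fold change (x axis) over the tested members of 17 gene lists (y axis) in the class contrast of the HLA-labelled libraries (black) and in 3 letter-labelled contrasts against IFNy (colours). The black points run from -1.19 for ER chaperones to 1.14 for replication-dependent histones, the latter resting on 26 tested members there and on 4 in the letter-labelled series.

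Inside the classes the label groups differed far less. The libraries labelled LE and PE differed in 232 of 14222 genes (1.63%), 147 higher (1.03%) and 85 lower (0.598%) in those labelled LE. Gadd45b, a stress-induced gene, was at 119, 104 and 118 CPM in the libraries labelled LE and at 55.2, 39.8 and 38.0 CPM in those labelled PE (log2 fold change of LE minus PE 1.43 ± 0.11, adjusted p = 1.67e-05). Mxd1, a partner of Max, was at 34.4, 31.4 and 37.2 CPM and at 18.7, 16.4 and 13.7 CPM (1.15 ± 0.12, adjusted p = 0.000117), and Glrx, glutaredoxin, was higher as well (1.10 ± 0.14, adjusted p = 0.000389). Cd33, a sialic acid receptor, was at 93.9, 81.4 and 51.0 CPM and at 141, 136 and 146 CPM (-0.83 ± 0.15, adjusted p = 0.00335). Arid5a (-0.85 ± 0.12, adjusted p = 0.000886) and the mitotic kinase Plk1 (-0.92 ± 0.20, adjusted p = 0.0131) were lower too, and 4 of 25 mitosis genes were lower in the libraries labelled LE. The count fell to 34 when the libraries numbered 5 were left out and to 123 without those numbered 6.

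In class 2 the libraries labelled LE+IFNy and PE+IFNy differed in 20 genes (0.141%), 15 higher (0.105%) and 5 lower (0.0352%) in those labelled LE+IFNy, in 41 by DESeq2, and in 5 without the libraries numbered 4 or without those numbered 5. Dio2 was at 23.4, 26.0 and 18.3 CPM in the libraries labelled LE+IFNy and at 9.75, 8.09 and 9.24 CPM in those labelled PE+IFNy (1.30 ± 0.14, adjusted p = 0.000244). Angptl2, a secreted angiopoietin-like protein, was at 39.2, 38.0 and 40.2 CPM and at 20.1, 20.8 and 21.2 CPM (0.90 ± 0.09, adjusted p = 0.000119), and Dcstamp, which fuses osteoclast precursors, was higher (0.93 ± 0.11, adjusted p = 0.000655). Gbp5 (-0.67 ± 0.10, adjusted p = 0.0101), Siglec1 (-0.63 ± 0.13, adjusted p = 0.0479) and Mov10 (-0.62 ± 0.11, adjusted p = 0.0303) were lower. Angptl2 had the same order in class 1, at 40.3 to 47.1 CPM under the LE label and 25.9 to 31.5 CPM under the PE label.

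A test of whether the class difference differed between the LE-labelled and the PE-labelled pair called 42 genes (0.295%), 35 with a more positive (0.246%) and 7 with a more negative value (0.0492%) under the LE label, and 154 without the library labelled LE 6. Oasl2, an antiviral gene, differed more under the LE label, where it went from 46.2, 50.9 and 81.3 CPM (labelled LE) to 18.6, 16.5 and 17.2 CPM (labelled LE+IFNy), than under the PE label, where it went from 32.5, 30.6 and 33.0 CPM to 25.1, 23.5 and 23.7 CPM (difference of the log2 fold changes 1.44 ± 0.21, adjusted p = 0.00945). Acod1 did so as well (1.27 ± 0.14, adjusted p = 0.00231), and Cxcl2 differed less under the LE label (-0.85 ± 0.15, adjusted p = 0.0230). With the libraries numbered 4 left out edgeR called 3 genes, with those numbered 5 left out it called 0 and 870 had an unadjusted p under 0.05, and DESeq2 on all 12 libraries called 91.

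The class contrast was set beside letter-labelled libraries, which share no library with it. The letter libraries labelled LE+IFNy and SE+IFNy were set against those labelled IFNy and PE+IFNy, a grouping that was given with results of these libraries known, so its values are a description. Irf4 was at 22.9 ± 0.498 CPM (mean ± SD, n = 3) in the letter libraries labelled LE+IFNy and 15.5 ± 2.01 CPM in those labelled SE+IFNy, against 4.75 ± 0.608 CPM under IFNy and 4.04 ± 0.712 CPM under PE+IFNy. Nos2 was at 562 ± 43.2, 412 ± 31.0, 302 ± 28.5 and 245 ± 21.4 CPM in the same order of labels, and Tnf at 125 ± 10.7, 86.4 ± 2.69, 58.8 ± 5.93 and 64.8 ± 2.71 CPM. For all 3 markers both letter groups labelled LE+IFNy and SE+IFNy were above both others, as class 1 was above class 2. Across the 12383 genes tested in both, Pearson's r between the class contrast and this pooled letter contrast was 0.75 and Spearman's rho 0.69, and genes are not independent replicates. Of the 2253 class calls among them, 93.9% had the same sign.

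By single letter labels, 1972 of 12720 genes (15.5%) were called for LE+IFNy against IFNy, 940 (7.39%) for SE+IFNy and 80 (0.629%) for PE+IFNy, the last count running from 4 to 250 when each replicate number was left out. These contrasts share the IFNy libraries and are given side by side. Genes higher in class 1 and higher in the letter libraries labelled LE+IFNy numbered 769, which is 63.8% of the first list and 65.4% of the second. Genes lower in both numbered 473, or 45.2% and 64.2%. Of all genes, 9.58% were called higher and 5.93% lower for LE+IFNy. For SE+IFNy the shared calls were 396 higher, or 32.8% and 65.9% of the lists, and 161 lower, or 15.4% and 54.4%. There 5.01% and 2.38% of all genes were called higher and lower. For PE+IFNy they were 14, or 1.16% and 24.6%, and 2, or 0.191% and 8.70%, where 0.448% and 0.181% of all genes were called higher and lower. Pearson's r across genes was 0.78, 0.61 and 0.03 for the labels LE+IFNy, SE+IFNy and PE+IFNy.

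**Figure D5:**
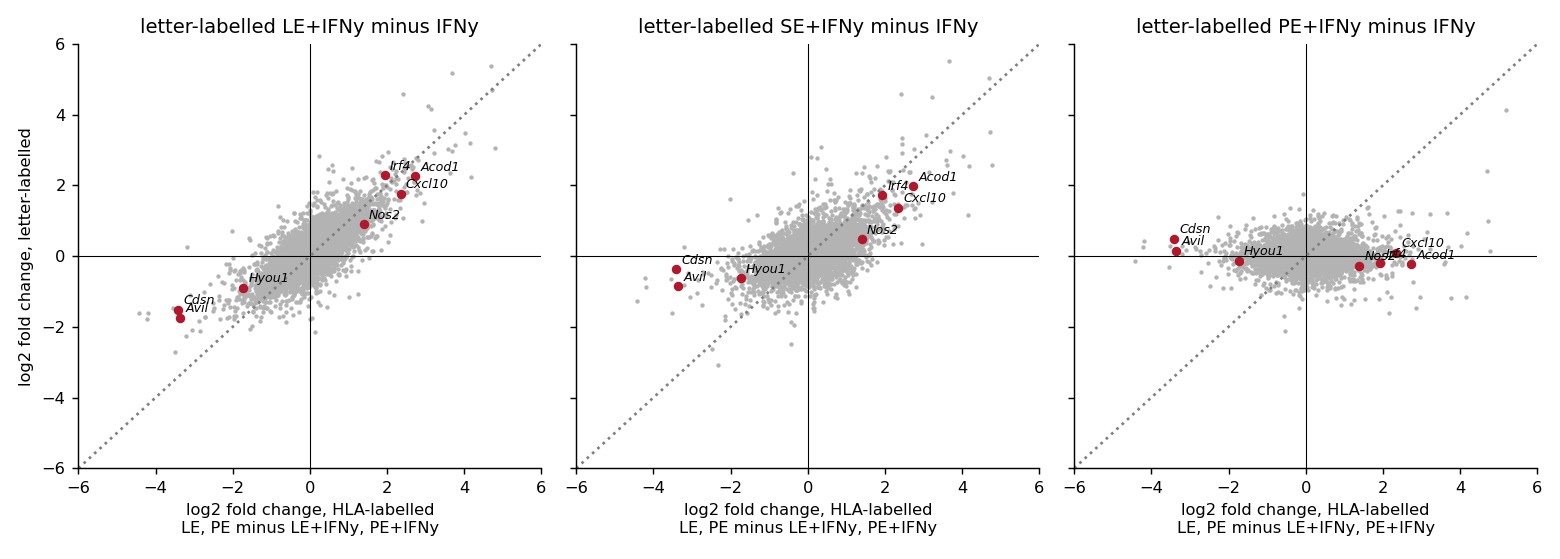
Each point is a gene, with its log2 fold change in the class contrast on the x axis and in a letter-labelled contrast against IFNy on the y axis, for LE+IFNy, SE+IFNy and PE+IFNy from left to right, with named genes in red and a dotted line at equal change. The cloud follows the line in the first panel (r = 0.78), less so in the second (0.61) and lies flat in the third (0.03).

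Gene by gene, Acod1 had a log2 fold change of 2.73 in the class contrast and of 2.27, 1.98 and -0.23 in the letter contrasts of LE+IFNy, SE+IFNy and PE+IFNy against IFNy. Myc had 2.44 beside 2.49, 1.83 and -0.03, and Hyou1 -1.74 beside -0.89, -0.63 and -0.13. ER chaperones were lower in 13 of 19 for LE+IFNy (5.93% of all genes were lower), in 7 of 19 for SE+IFNy (2.38%), and had a median of -0.11 for PE+IFNy. DNA replication genes were higher in 20 of 25 for LE+IFNy and 7 of 25 for SE+IFNy, against 9.58% and 5.01% of all genes. Mitosis genes parted the letter labels, with 10 of 25 higher for LE+IFNy and 11 of 25 lower for SE+IFNy.

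The difference between the class contrast and the pooled letter contrast was called for 825 of 14662 genes (5.63%), of which 560 had a more negative value in the class contrast and the others a more positive one. This order of the classes, class 1 minus class 2, was taken from the given grouping after the data were seen. The letter grouping was given with results of its libraries known too, so the counts and values in this paragraph are a description. In the order fixed at first, class 2 minus class 1, like changes in both series add up, so its count is not one of disagreement. There 4793 genes (32.7%) were called, 2137 with a positive (14.6%) and 2656 with a negative value (18.1%), or 2680 and 2151 with upper-quartile scaling. Acod1, at 2.73 in the class contrast and 2.24 in the pooled letter contrast, had -5.00 in that order. In the order class 1 minus class 2, 22 of 25 mitosis genes were more positive in the class contrast (1.81% of all genes were). Their median difference was 0.85. ER chaperones were more negative in the class contrast for 9 of 19 (3.82% of all genes), with a median difference of -0.58. Single genes were Hist1h1c (1.80 ± 0.17), Plau, which encodes urokinase (1.35 ± 0.18), and Acp5 (1.20 ± 0.15) on the positive side. On the negative side were Cdsn (-2.25 ± 0.24), Avil (-2.01 ± 0.37) and Tenm4 (-1.95 ± 0.25).

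The same labels gave another picture in the letter-labelled series. There the libraries labelled LE and PE against those labelled LE+IFNy and PE+IFNy differed in 3551 of 12737 genes (27.9%), and this labelled contrast differed from the class contrast in 5338 of 14620 genes (36.5%). Pearson's r across 12373 genes between them was -0.26. The IFN-γ score was 2.66 to 2.73 in letter libraries labelled LE or PE and 6.57 to 6.93 in those labelled LE+IFNy or PE+IFNy. Both HLA classes were picked for a high score, so this count and r were fixed in part by the selection. Cxcl9, a chemokine induced by IFN-γ, was at 0 counts in all 6 letter libraries labelled LE or PE, whereas the HLA libraries of the same labels held 35.0 to 116 CPM. Cxcl9 is one of the IFN-γ targets in the score, so this gap is the selection itself and is not tested. Kbtbd11 was at 113 ± 12.8 and 115 ± 7.35 CPM in the letter libraries labelled LE and PE and at 3.22 to 4.80 CPM in class 1. In the letter libraries labelled LE+IFNy and PE+IFNy it was lower too, at 11.8 ± 1.19 and 31.8 ± 1.40 CPM. The difference of the log2 fold changes, -4.69 ± 0.10, was thus also fixed in part by the selection and is a description.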

How the data were processed

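RNA was measured by stranded poly(A) RNA-seq with single-end reads. The authors counted uniquely mapped reads per gene with featureCounts on GENCODE M12 (GRCm38) and deposited 1 table of raw counts, 49568 gene names by 48 libraries, of which 0 columns belonged to no labelled sample. The aligner was not given in the sources used here, and the submitters' processing notes name DESeq2 1.16.1 and R 3.4.1. The table holds 26 gene names turned into dates and 4 lines with 2 repeated names.

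Groups came from the labels. Counts were filtered by filterByExpr, scaled by TMM and tested with edgeR 4.0.16 (limma 3.58.1, R 4.3.3) by the quasi-likelihood test, with label group as the factor and Benjamini-Hochberg adjustment over all genes tested. A gene was called at an adjusted p under 0.05 and a fold change over 1.5. CPM used each library's total count, and the IFN-γ score added a pseudocount of 1 CPM. Descriptions used Python 3.11.15, numpy 2.4.6, pandas 2.3.3 and scipy 1.17.1. The steps were tested on simulated data. Alternatives were RLE and upper-quartile scaling, no filter, DESeq2 1.42.0, a replicate block, leaving out libraries, all 24 HLA-labelled libraries in 1 fit, and 2 classes without label groups.

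Replicate numbers came from the labels. Over the 12 libraries, deviations from the group means of same-numbered libraries correlated by -0.067 to 0.279. Differently numbered libraries reached 0.143. Between the libraries labelled LE and PE all 3 same-numbered pairs were over 0.1 (0.187, 0.176 and 0.273), and differently numbered ones ran from -0.214 to 0.0689. The number may therefore pair these groups, which was not tested. The main fit did not pair them, and with the number as a block LE against PE called 258 genes in place of 232. Every other pair of groups had at least 1 same-numbered pair under 0.1.

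The members and gene lists were chosen with earlier results of these data known. Named genes were the 3 markers, the 12 higher and 12 lower genes with the largest change among called genes with a mean of at least 10 CPM and no overlap between classes, up to 4 genes of each list, and up to 3 genes per direction for contrasts inside a class and between series. Gene coordinates are those of GENCODE M21 on GRCm38.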

Additional observations from a re-analysis of the deposited data

Results flagged for a closer look

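Of 62 groups of 6 libraries examined with Dixon's test, 3 held a library far from the others, and chance marks about 1 in 20 groups. Nos2 in the library labelled PE 6 was the lowest of class 1 at 192 CPM, with a gap of 0.730 of the group's range. Egr1 in the library labelled LE 6 was the highest of class 1 at 38.6 CPM, with a gap of 0.853 of the range. The share of counts on replication-dependent histones in the library labelled LE 6 was the lowest of class 1 at 0.132%, with a gap of 0.671 of the range.

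Effects that differed between groups by a test of the difference itself were counted by edgeR's quasi-likelihood test. The class difference was called as depending on the peptide label for 42 genes (0.295%), a count that ran from 0 to 154 when libraries were left out. It is not known from these data that the peptide labels hold. It differed from the labelled contrast of the letter series for 5338 genes, a count that the selection of the libraries by IFN-γ response fixed in part. From the pooled letter contrast it differed for 825 genes in the order class 1 minus class 2, given as a description. In the order fixed at first 4793 genes were called, but there like changes add up, so these genes need not differ.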

How the results depend on the processing

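The class contrast called 2213 to 2888 genes over all its alternatives, and 2213 to 2874 when libraries were left out. With no filter on low counts, LE against PE called 352 genes in place of 232, LE+IFNy against PE+IFNy 69 in place of 20, the dependence on the peptide label 153 in place of 42, and letter-labelled PE+IFNy against IFNy 152 in place of 80. With DESeq2 the last 3 were 41, 91 and 31. When replicates were left out, LE against PE called 34 to 259 genes, LE+IFNy against PE+IFNy 5 to 19, the dependence on the peptide label 0 to 154 and letter-labelled PE+IFNy against IFNy 4 to 250. The difference from the pooled letter contrast went from 4793 to 825 genes when the classes were put in the order of the given grouping, chosen after seeing the data. Like changes add up in the first order, so these counts answer different questions. The log2 fold change of Ighm, -0.07 and not called, ran from -0.167 to 0.0080 when libraries were left out, the latter without the library labelled PE+IFNy 4 (adjusted p = 0.937). Upper-quartile scaling turned the share of class contrast calls that were higher in class 1 from 52.6% to 43.9%. Among single genes, 2533 values kept their direction and side of the threshold, 40 lost the call and 2 gained it.

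With the replicate number as a block the class contrast called 2626 genes, no named gene gained or lost its call, and no count of calls moved by over 1.5 times (258 for LE against PE, 26 for LE+IFNy against PE+IFNy, 58 for the dependence on the peptide label, 111 for letter-labelled PE+IFNy). With 3 libraries in a group, counts inside a class rested on single replicate numbers, and the cause was not tested. After trends with transcript length and GC content were subtracted, an alternative added after seeing the data, 2439 of 2526 class calls (96.6%) were still past the fold threshold.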
